A study of Homo sapiens with 2 samples.

Results

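The genes described here are 9 genes of the death receptor pathway and of its inhibitors, chosen by name from the 32742 genes of the table: the receptor genes TNFRSF10A, TNFRSF10B and FAS, the adaptor gene FADD, the initiator caspase gene CASP8, the inhibitor of apoptosis (IAP) genes XIAP, BIRC6 and BIRC2, and DIABLO, which encodes an antagonist of those inhibitors. No effector caspase is among the 9, so CASP6 is given with the other genes of the pathway. The cells were WaGa, an established Merkel cell carcinoma line that grows in suspension and here was kept in RPMI medium, profiled by droplet-based 3′ single-cell RNA sequencing. One group was treated with the histone deacetylase (HDAC) inhibitor domatinostat, dissolved in DMSO, and the other was labelled as having had no treatment. Each group was 1 library of 1 culture, and the labels gave no dose, no duration and no word on whether the untreated cells received the solvent.

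Death receptors are cell surface proteins of the tumour necrosis factor receptor family that start apoptosis when a ligand clusters them. TNFRSF10A and TNFRSF10B bind TRAIL and FAS binds FAS ligand; the clustered receptors recruit FADD, which gathers and activates caspase-8, and caspase-8 cleaves the effector caspases. XIAP blocks effector caspases directly, BIRC2 (cIAP1) is a ubiquitin ligase that steers tumour necrosis factor signalling towards survival, and BIRC6 is a giant ubiquitin-conjugating inhibitor. SMAC, the product of DIABLO, leaves mitochondria during apoptosis and displaces IAP proteins from caspases. HDAC inhibitors act on chromatin and are studied in cancer cells for their effects on genes of this pathway.

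The domatinostat library yielded 60160108 unique molecular identifiers (UMIs, each standing for 1 captured transcript) in 6679 cells, and the untreated library 45562976 UMIs in 4137 cells. The median cell had 8578 UMIs in domatinostat and 11125 in untreated cells. Levels are UMIs per 1000000 UMIs of the library (CPM), with exact Poisson intervals for the ones that the results turn on. Each condition rests on 1 library, so no value has a replicate check and no test was made, and all intervals cover counting error only. A gene was called higher or lower when its CPM ratio, domatinostat over untreated, was at least 1.5-fold from 1 and it had at least 100 UMIs over both libraries. Cells were tied to the groups by the treatment word that ends each cell name, so the groups are those of the names. CDKN1A, a gene that HDAC inhibitors are known to induce, had 39.4 CPM in the domatinostat library and 97.9 CPM in the untreated library, which is against that known direction. All directions below rest on the same words. All 9 Merkel cell carcinoma markers examined had at least 100 UMIs, with a sum of 2239 CPM in domatinostat and 1858 CPM in untreated cells. The 30 markers of other cell types summed to 30.5 CPM in domatinostat and 51.6 CPM in untreated cells; 28 of them were in the table and 8 of those were at 0 in both libraries. In domatinostat cells the sums were 17.9 CPM for fibroblast, 6.60 for endothelial, 2.84 for keratinocyte, 1.23 for B cell, 0.731 for myeloid, 0.665 for erythroid, 0.482 for melanocyte and 0 for T cell markers. In untreated cells they were 29.3 CPM for fibroblast, 6.56 for endothelial, 4.63 for keratinocyte, 4.26 for B cell, 1.54 for myeloid, 1.95 for erythroid, 3.36 for melanocyte and 0.0220 for T cell markers. These sums were lower in domatinostat cells for all types but the endothelial one, and their part in the lower levels given below was not tested.

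The pathway was unevenly supplied with transcripts in WaGa cells. TNFRSF10A was lower in domatinostat cells, TNFRSF10B and FAS were nearly undetected in both libraries, FADD was level, CASP8 was scarce with a ratio below 1, and DIABLO was higher. Of the 9 genes, 7 reached the minimum of 100 UMIs and 2, TNFRSF10B and FAS, did not. Among the 7, 1 was called lower, 1 higher and 5 neither, where 12.2% of the 12812 genes at that minimum were called lower and 3.17% higher. The median log2 ratio was 0.18 over the 7 genes and -0.01 over all 12812. Among the 1974 genes with 100 to 300 UMIs, the range of TNFRSF10A and CASP8, 34.9% were called lower and 6.23% higher, and the median log2 ratio was -0.30, against -1.10 for TNFRSF10A and -0.45 for CASP8.

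**Figure D1:**
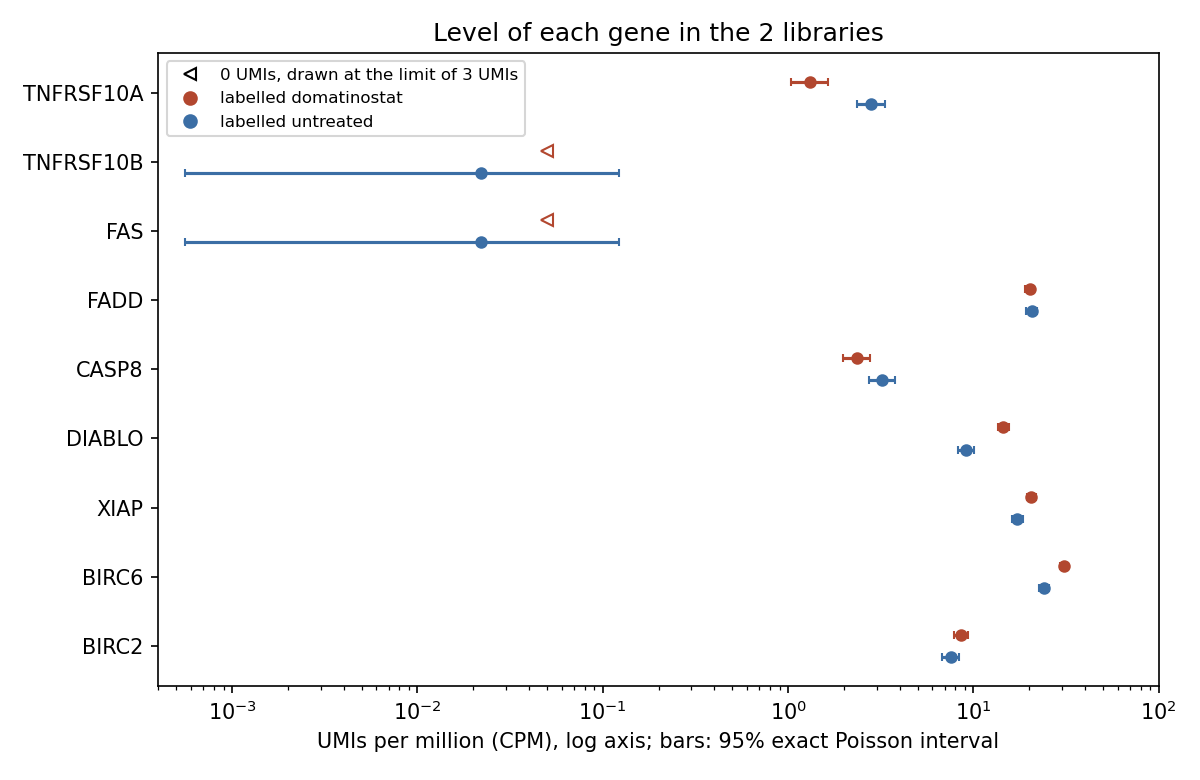
Level of each of the 9 genes in CPM on a log axis, with the domatinostat library in red above the untreated library in blue; bars are 95% exact Poisson intervals and open triangles mark 0 UMIs at the limit of 3 UMIs. The intervals of TNFRSF10A, DIABLO, XIAP and BIRC6 lie apart between the libraries, those of FADD, CASP8 and BIRC2 overlap, and TNFRSF10B and FAS sit far to the left with at most 1 UMI.

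Among the receptors, TNFRSF10A (DR4, a receptor that binds TRAIL and signals death) had 79 UMIs in the domatinostat library and 128 in the untreated library. Its level was 1.31 CPM (1.04 to 1.64) in domatinostat and 2.81 CPM (2.34 to 3.34) in untreated cells. The ratio was 0.467 (95% exact interval 0.349 to 0.624). The intervals of the levels did not overlap, and the domatinostat cells had the lower level. These transcripts were spread over many cells. In the domatinostat library 77 cells had 1 UMI and 1 cell had 2, and in the untreated library 118 cells had 1 and 5 had 2. At 207 UMIs in all, the gene belongs to the count range in which a lower call was frequent over the whole table.

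TNFRSF10B (DR5, the other TRAIL receptor that signals death) had 0 UMIs in 6679 domatinostat cells and 1 UMI in 4137 untreated cells, and FAS, the receptor of FAS ligand, had the same counts. A count of 0 allows up to 0.0499 CPM, or up to 0.0449% of cells with a UMI, in the domatinostat library. A single UMI in the untreated library is 0.0220 CPM. No ratio is given for either gene, since both libraries are at or under the limit of 3 UMIs. The TNFRSF10B and FAS transcripts of the untreated library lay in 2 different cells, with 9271 and 6876 UMIs in all.

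Downstream of the receptors, FADD, the adaptor that links them to caspase-8, had 1213 UMIs in domatinostat and 939 in untreated cells. Its level was 20.2 CPM (19.0 to 21.3) in domatinostat and 20.6 CPM (19.3 to 22.0) in untreated cells, a ratio of 0.978 (0.898 to 1.07). The interval holds 1, and a difference within it was not detectable at this depth.

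CASP8, the initiator caspase that FADD recruits, had 142 UMIs in domatinostat and 147 in untreated cells, from the larger and the smaller library. Its level was 2.36 CPM (1.99 to 2.78) in domatinostat and 3.23 CPM (2.73 to 3.79) in untreated cells. The ratio of 0.732 (0.577 to 0.928) lay below 1 but short of 1.5-fold, and the intervals of the levels overlapped slightly. With each cell given equal weight the ratio was 0.666 and CASP8 was called lower too.

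The IAP genes all had ratios above 1 and none reached 1.5-fold. XIAP, the inhibitor that binds effector caspases, had 1235 UMIs or 20.5 CPM (19.4 to 21.7) in domatinostat and 787 UMIs or 17.3 CPM (16.1 to 18.5) in untreated cells, a ratio of 1.19 (1.09 to 1.30). BIRC6 had 1858 UMIs or 30.9 CPM (29.5 to 32.3) in domatinostat and 1096 UMIs or 24.1 CPM (22.7 to 25.5) in untreated cells, a ratio of 1.28 (1.19 to 1.39). For both genes the intervals of the levels were apart. BIRC2 had 516 UMIs or 8.58 CPM (7.85 to 9.35) in domatinostat and 344 UMIs or 7.55 CPM (6.77 to 8.39) in untreated cells, and its ratio of 1.14 (0.989 to 1.31) had an interval that held 1.

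DIABLO, the antagonist of these inhibitors, had 871 UMIs in domatinostat and 415 in untreated cells. Its level was 14.5 CPM (13.5 to 15.5) in domatinostat and 9.11 CPM (8.25 to 10.0) in untreated cells. The ratio of 1.59 (1.41 to 1.79) was past the 1.5-fold line, and the intervals of the levels were far apart. Of the 6546 genes with more than 300 and up to 3000 UMIs, the range of DIABLO, 3.36% were called higher and 11.7% lower. With each cell given equal weight its log2 ratio was 0.58, just under the 1.5-fold line.

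Promoter sequence is shown for the nearly undetected receptor gene FAS, for the scarce CASP8 and for DIABLO, the gene that was higher, so that they can be set side by side. Each window runs from 250 bases before to 50 bases after an annotated RefSeq start in GRCh38.p14, 5′ to 3′ on the gene's strand, at chr10:88990548-88990847 (plus strand) for FAS, chr2:201233213-201233512 (plus strand) for CASP8 and chr12:122227407-122227706 (minus strand) for DIABLO. Capitals mark the GC box GGGCGG, searched together with its reverse complement CCGCCC; GC boxes are bound by Sp-family factors, through which HDAC inhibitors are known to induce CDKN1A.
FAS: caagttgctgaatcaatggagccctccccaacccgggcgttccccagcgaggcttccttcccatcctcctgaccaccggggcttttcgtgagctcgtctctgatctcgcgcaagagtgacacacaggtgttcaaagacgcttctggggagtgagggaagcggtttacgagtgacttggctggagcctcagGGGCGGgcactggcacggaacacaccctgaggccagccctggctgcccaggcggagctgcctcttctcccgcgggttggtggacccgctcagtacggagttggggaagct
CASP8: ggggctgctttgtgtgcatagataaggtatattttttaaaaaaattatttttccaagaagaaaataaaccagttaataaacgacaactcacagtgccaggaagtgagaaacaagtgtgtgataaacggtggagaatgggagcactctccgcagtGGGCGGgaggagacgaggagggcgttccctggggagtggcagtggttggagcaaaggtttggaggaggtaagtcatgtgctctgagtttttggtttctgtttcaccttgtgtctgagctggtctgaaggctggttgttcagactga
DIABLO: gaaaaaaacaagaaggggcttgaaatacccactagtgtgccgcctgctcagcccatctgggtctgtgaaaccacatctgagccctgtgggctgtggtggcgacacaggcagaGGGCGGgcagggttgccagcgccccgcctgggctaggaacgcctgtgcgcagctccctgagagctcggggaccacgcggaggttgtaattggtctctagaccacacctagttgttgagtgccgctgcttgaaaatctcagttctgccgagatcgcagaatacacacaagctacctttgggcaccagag
Each window holds 1 GC box, against at least 1 in 44.95% of the 35116 RefSeq windows of this length. The CASP8 window had 6 CpG dinucleotides and 46.3% G or C, the DIABLO window 13 and 58.3% and the FAS window 18 and 63%, where the medians over all windows were 14 and 58.7%. The windows of XIAP, BIRC6 and FADD, not shown, had 2 GC boxes each and that of BIRC2 had 1. FAS and CASP8 had 3 annotated windows each and DIABLO had 4. The 1 nearest to the start of the main GENCODE transcript was used, and 3′ counts do not tell which start the cells use. The RefSeq start lay 141 bases from that GENCODE start for FAS, 0 for CASP8 and 78 for DIABLO. The 3 windows are thus not placed alike around the GENCODE starts.

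The next question was how many cells carried each transcript. Deeper cells show more genes, so each cell was thinned to 4351 UMIs, which kept 6012 domatinostat and 3892 untreated cells and left out 667 shallower domatinostat and 245 shallower untreated cells. At that depth at least 1 of the 9 genes had a UMI in 34.9% of domatinostat and 30.3% of untreated cells. Any of XIAP, BIRC6 and BIRC2 was seen in 23.1% (22.0% to 24.2%) of domatinostat and 18.6% (17.4% to 19.9%) of untreated cells, while any of the 3 receptors was seen in 29 domatinostat cells, or 0.482%, and 48 untreated cells, or 1.23%. How much of this is ambient RNA was not tested, since the libraries held no cell type that lacks these genes.

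Gene by gene, the thinned shares kept the order of the levels. TNFRSF10A had a UMI in 0.482% (0.323% to 0.692%) of domatinostat cells and 1.18% (0.867% to 1.57%) of untreated cells, unthinned in 1.17% of domatinostat and 2.97% of untreated cells. CASP8 was seen in 0.915% of domatinostat and 1.41% of untreated cells, unthinned in 2.07% of domatinostat and 3.48% of untreated cells. DIABLO was seen in 6.04% (5.45% to 6.67%) of domatinostat and 4.11% (3.51% to 4.78%) of untreated cells, unthinned in 12.3% of domatinostat and 9.45% of untreated cells. The thinned exact binomial intervals of TNFRSF10A, DIABLO, XIAP and BIRC6 did not overlap between the libraries, while those of CASP8, FADD and BIRC2 did.

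For XIAP the share was 9.02% (8.30% to 9.77%) in domatinostat and 6.89% (6.11% to 7.73%) in untreated cells. Unthinned it was 16.7% in domatinostat and 16.8% in untreated cells. BIRC6 was seen in 12.3% (11.44% to 13.11%) of domatinostat and 9.97% (9.045% to 10.95%) of untreated cells, and unthinned in 23.5% of domatinostat and 22.5% of untreated cells. BIRC2 was seen in 3.79% of domatinostat and 3.03% of untreated cells, and unthinned in 7.32% of domatinostat and 7.93% of untreated cells. Unthinned, where the untreated cells were the deeper ones, the shares of XIAP and BIRC2 stood in the other order. FADD was seen in 8.48% of domatinostat and 8.58% of untreated cells, unthinned in 16.6% of domatinostat and 19.9% of untreated cells, and at a depth of 8578 UMIs in 17.2% of domatinostat and 16.5% of untreated cells. No cell held more than 5 UMIs of any of the 9 genes in either library.

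**Figure D2:**
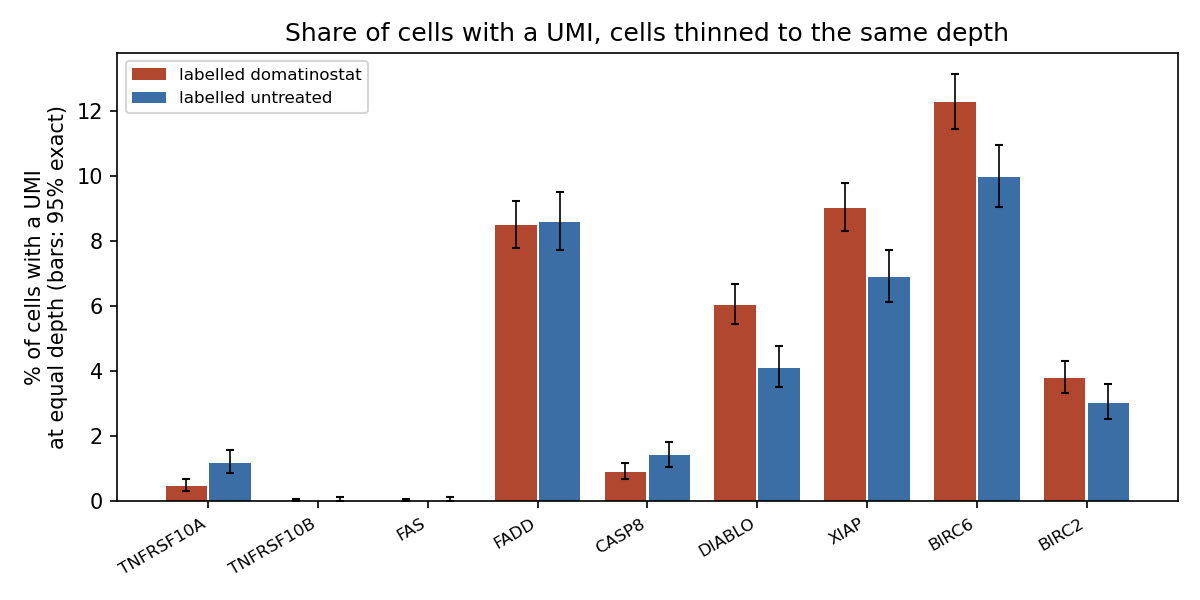
Share of cells with at least 1 UMI of each gene, in percent, after each cell was thinned to 4351 UMIs, with the domatinostat library in red left of the untreated library in blue; bars on the columns are 95% exact binomial intervals. TNFRSF10A and CASP8 stand lower and DIABLO, XIAP, BIRC6 and BIRC2 stand higher in domatinostat cells, with FADD at about the same height.

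Transcripts of the pathway were rarely caught together in 1 cell. FADD and CASP8, whose proteins form the core of the death-inducing complex, were both seen in 5 thinned domatinostat cells and 9 thinned untreated cells, where the product of their shares gives 4.67 cells in domatinostat and 4.72 in untreated. A receptor, FADD and CASP8 were seen together in 0 thinned cells of either library. The product of their shares gives 0.0225 thinned cells in domatinostat and 0.0582 in untreated. Without thinning they were seen together in 0 domatinostat cells and 2 untreated cells, where the product gives 0.267 and 0.866 cells. With products below 1 cell, these counts do not tell whether the transcripts occur together. DIABLO together with any of XIAP, BIRC6 and BIRC2 was seen in 81 domatinostat cells and 29 untreated cells, where the product of the shares gives 83.8 cells in domatinostat and 29.8 in untreated. Of the 36 pairs of the 9 genes, 10 pairs in domatinostat and 8 in untreated had a product of at least 10 cells. Their observed counts were 0.581 to 1.20 times the product in domatinostat, with a median of 1.02, and 0.635 to 1.53 times in untreated cells, with a median of 1.12. At these low shares a cell without a UMI may still hold the transcript.

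Cell cycle calls differed between the libraries, so levels were also read within each call. The calls were made on thinned cells, while the levels and ratios within a call use all UMIs of those cells. Of the thinned domatinostat cells, 5.94% were called G1, 47.1% S and 47.0% G2/M. Of the thinned untreated cells, 10.4% were called G1, 55.2% S and 34.4% G2/M. Such calls come from transcript scores and are no measure of cells in division. Averaged over the 3 calls with equal weight, the log2 ratio of each gene kept its sign, and that of DIABLO was 0.74.

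DIABLO was higher in domatinostat cells within every call. Its ratio was 1.78 (1.06 to 2.99) in G1, 1.52 (1.29 to 1.79) in S and 1.76 (1.45 to 2.15) in G2/M. Its level varied little over the calls, with 14.2, 15.04 and 14.2 CPM in G1, S and G2/M of domatinostat cells and 8.01, 9.92 and 8.08 CPM in those of untreated cells.

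TNFRSF10A had a ratio below 1 within each call. It was 0.696 (0.214 to 2.004) in G1, from 6 UMIs in domatinostat and 12 in untreated cells, 0.595 (0.390 to 0.900) in S and 0.313 (0.190 to 0.503) in G2/M. In domatinostat cells its level was 2.31, 1.57 and 0.943 CPM in G1, S and G2/M, and in untreated cells it was 3.32, 2.64 and 3.02 CPM. The intervals of the 3 ratios overlap, and a difference between the calls was not tested. CASP8 had a ratio of 0.556 (0.388 to 0.790) in S, with 2.08 CPM in domatinostat and 3.75 CPM in untreated cells, and of 0.999 (0.682 to 1.48) in G2/M, with 2.56 CPM in both. Its ratio in G1 was 0.773 (0.204 to 2.57) from 5 UMIs in domatinostat and 9 in untreated cells.

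XIAP and BIRC2 had their lowest level in cells called S in both libraries. XIAP had 22.3, 18.5 and 21.9 CPM in G1, S and G2/M of domatinostat cells and 19.3, 15.3 and 19.4 CPM in those of untreated cells. BIRC2 had 9.23, 7.23 and 9.46 CPM in domatinostat cells and 8.01, 6.17 and 9.22 CPM in untreated cells. For both genes in both libraries, the Poisson interval of S lay below that of G2/M but overlapped that of G1. The G1 cells held only 24 UMIs of BIRC2 in domatinostat and 29 in untreated cells. The ratio of BIRC6 was 0.928 (0.693 to 1.24) in G1, 1.34 (1.20 to 1.5) in S and 1.31 (1.17 to 1.48) in G2/M. In untreated cells BIRC6 stood at 34.0 CPM in G1 and at 22.3 and 23.7 CPM in S and G2/M, while in domatinostat cells it stayed between 29.9 and 31.5 CPM.

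**Figure D3:**
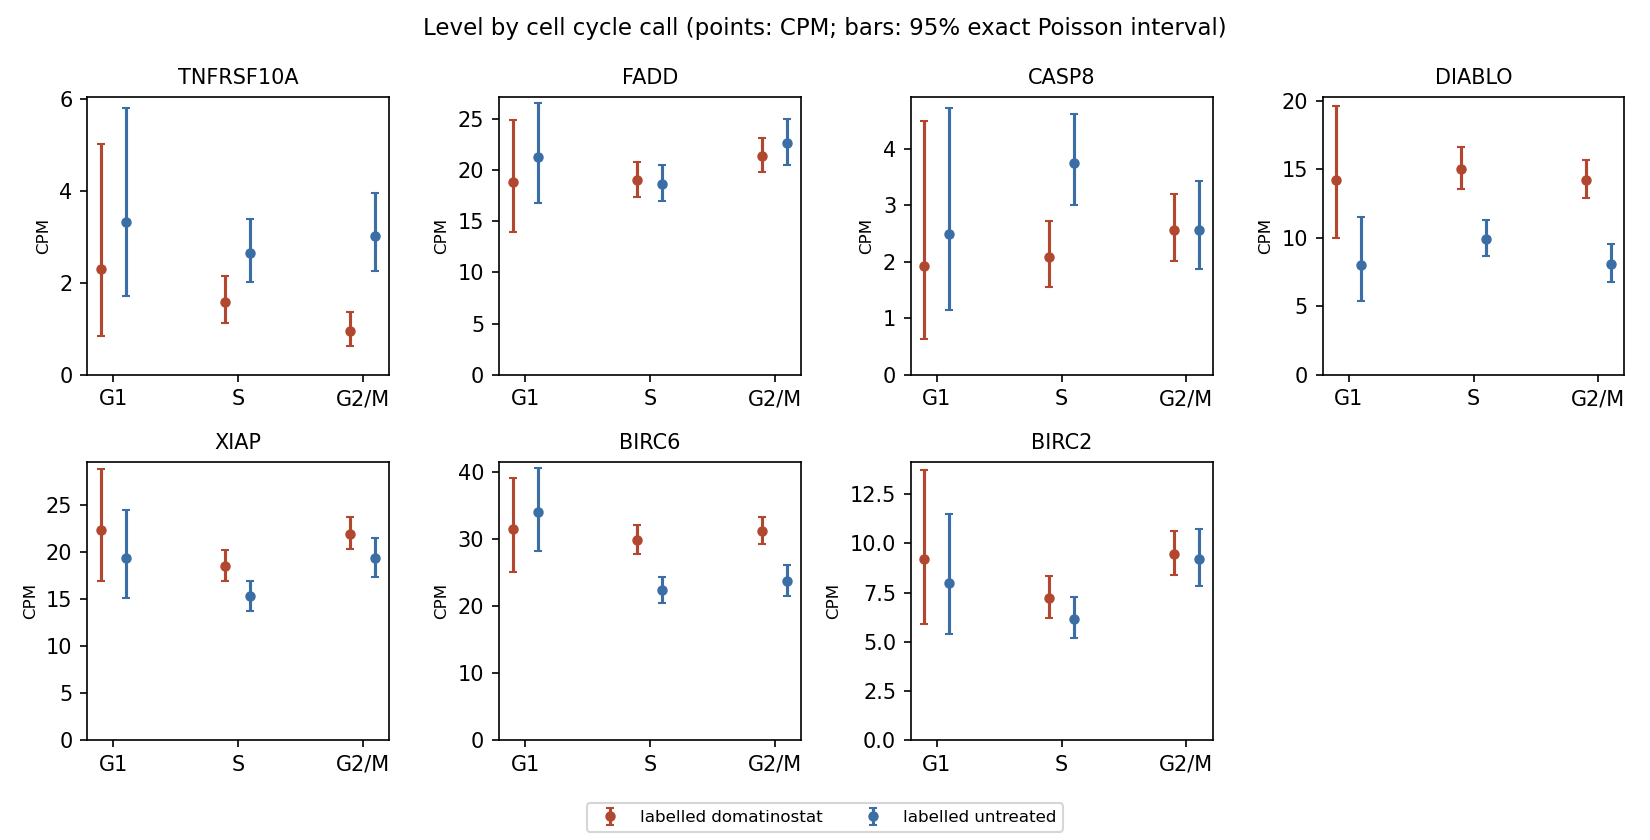
Level in CPM of the 7 measured genes in cells called G1, S or G2/M, with domatinostat in red left of untreated in blue. Calls were made after thinning, and levels use all UMIs of the called cells. Bars are 95% exact Poisson intervals. DIABLO is higher in domatinostat at each call, and TNFRSF10A is lower at each call with wide bars in G1.

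Within each library, cells were also sorted into quartiles by their total UMIs and by their mitochondrially encoded share. BIRC6 and XIAP were highest in the shallowest quartile of domatinostat cells. BIRC6 had 36.4, 30.4, 32.0 and 28.6 CPM from the shallowest to the deepest quartile of domatinostat cells and 27.1, 24.3, 22.7 and 24.0 CPM in untreated cells. XIAP had 25.3, 19.1, 18.7 and 20.9 CPM in the quartiles of domatinostat cells and 18.5, 15.5, 17.1 and 18.1 CPM in those of untreated cells. DIABLO had 12.5, 13.3, 14.8 and 15.5 CPM in domatinostat and 10.1, 9.20, 9.66 and 8.30 CPM in untreated cells, so that every quartile of the domatinostat library was above every quartile of the untreated one.

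Over the quartiles by mitochondrial share, TNFRSF10A and DIABLO again stood apart between the libraries. TNFRSF10A stayed between 1.07 and 1.65 CPM in the domatinostat quartiles and between 2.61 and 2.93 CPM in the untreated quartiles, and the ranges did not overlap. DIABLO stayed between 13.8 and 15.6 CPM in the domatinostat quartiles and between 7.66 and 10.6 CPM in the untreated quartiles. XIAP reached 24.1 CPM in the domatinostat quartile with the highest mitochondrial share, against 19.1 to 19.8 CPM in the other 3, and in untreated cells it was highest, at 20.8 CPM, in the quartile with the lowest share.

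Clustering within each library, with the 9 genes and the pathway lists left out, gave 7 clusters per library, which were not named. DIABLO ranged from 10.4 to 16.4 CPM over the domatinostat clusters and from 7.16 to 10.9 CPM over the untreated clusters. BIRC6 ranged from 26.9 to 39.5 CPM in domatinostat and from 17.4 to 36.0 CPM in untreated clusters, and XIAP from 16.5 to 32.1 CPM in domatinostat and from 12.1 to 22.6 CPM in untreated clusters. The highest XIAP and BIRC6 levels fell in the same 446 domatinostat cells, a cluster with a mean of 5162 UMIs per cell whose leading genes were CTNNB1, PTPRS and SPC24. That cluster had the lowest DIABLO and FADD of the domatinostat clusters, at 10.4 and 16.1 CPM, and a mitochondrially encoded share of 5.46%. It was the shallowest of the 14 clusters, and the part of depth in its levels was not tested.

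TNFRSF10A was scarce in every cluster, with 0.869 to 1.81 CPM in domatinostat and 1.22 to 4.55 CPM in untreated clusters. Its 79 UMIs in domatinostat and 128 in untreated cells leave few per cluster, and a difference between clusters was not tested. In each library the cluster with the highest BIRC2 was led by mitotic genes, but not all clusters with high BIRC2 were. The domatinostat cluster led by RP11-304L19.5, AVIL and DCN had 11.35 CPM, the next highest level of that library. BIRC2 had 12.9 CPM in the domatinostat cluster led by CCNB1, which encodes a mitotic cyclin. It had 12.8 CPM in the untreated cluster led by PIF1, whose other leading genes include the mitotic kinase gene PLK1. The untreated cluster led by CCNB1 had 8.97 CPM of BIRC2 and the domatinostat cluster led by PIF1 had 8.45 CPM, so the pattern was not the same in both libraries. FADD ranged from 16.1 to 23.7 CPM in domatinostat and from 17.1 to 24.1 CPM in untreated clusters.

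**Figure D4:**
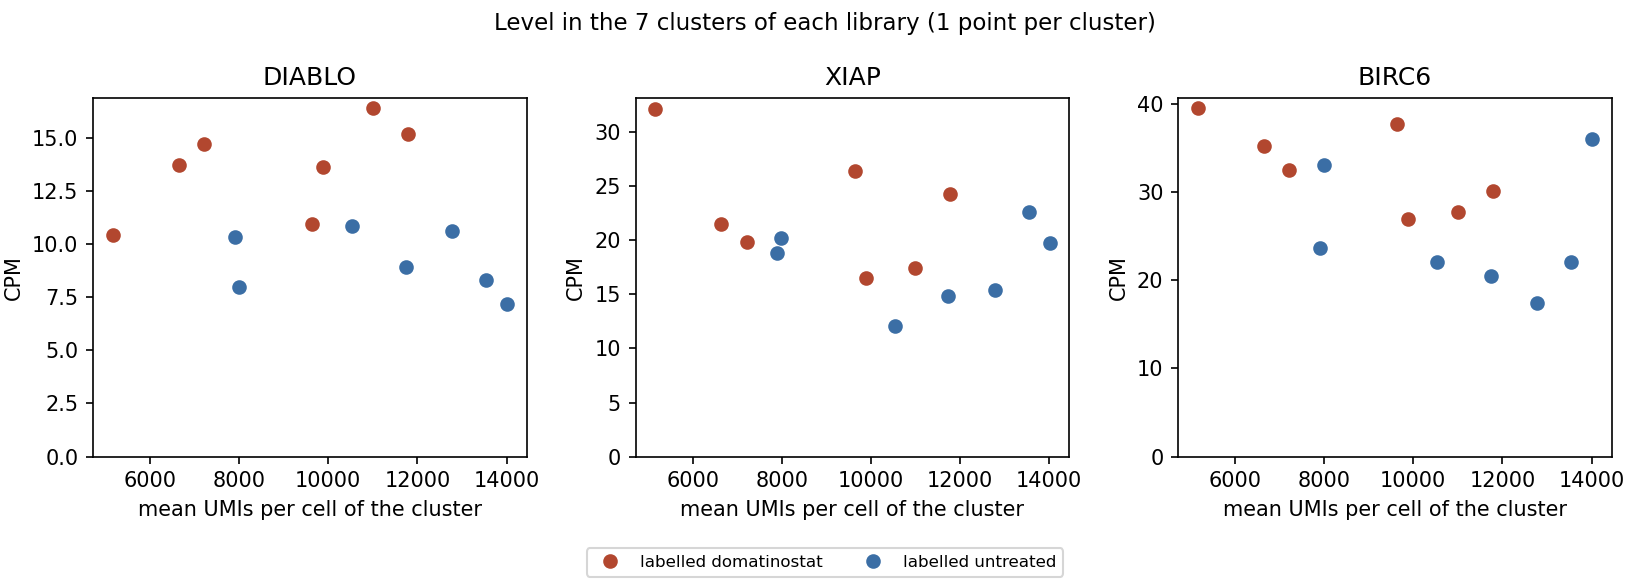
Level of DIABLO, XIAP and BIRC6 in CPM in each of the 14 clusters against the cluster's mean UMIs per cell, with domatinostat clusters in red and untreated clusters in blue. The domatinostat cluster of 446 cells at the far left has the highest XIAP (32.1 CPM) and BIRC6 (39.5 CPM), and the DIABLO points of the libraries overlap only between 10.4 and 10.9 CPM.

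Across the 14 clusters, Pearson's r of the log2 levels was 0.723 between XIAP and BIRC6 and lay between -0.229 and 0.103 for the other 5 pairs of FADD, DIABLO, XIAP and BIRC6, the members with at least 1000 UMIs. The clusters share 2 libraries and differ in depth, so these values are a description. Among 7734 genes with at least 1000 UMIs, the profile most like that of XIAP was that of RBM12B (r = 0.968), followed by CCNK (0.967) and PHACTR4 (0.944), and 269 genes had an r above 0.8. For BIRC6 the closest were NSD1 (0.888), ARFGEF2 (0.886) and NBAS (0.881). For DIABLO they were TAX1BP3 (0.895), PDCL3 (0.843) and GABARAP (0.841), and for FADD they were IFT46 (0.831), SMAD1 (0.824) and ZNF330 (0.813).

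The rest of the pathway was read from lists of 61 other genes, of which 60 were in the table and 42 reached 100 UMIs. Of these 42, 2 were called higher and 7 lower in domatinostat cells, their median log2 ratio was -0.03, and 12 of the 60 were at 0 in both libraries. Of the 7 lower genes, 2 encode receptors.

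The ligands of the member receptors were not seen. TNFSF10, which encodes TRAIL, and FASLG, which encodes FAS ligand, had 0 UMIs in both libraries, which allows up to 0.0499 CPM in domatinostat and 0.0658 CPM in untreated cells. The decoy receptor gene TNFRSF10D was also at 0 in both, and TNFRSF10C had 1 UMI in each. TNF, the ligand of another branch, was present at 14.3 CPM in domatinostat and 16.1 CPM in untreated cells, a ratio of 0.886 (0.802 to 0.979).

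Of the 3 other receptor genes that reached 100 UMIs, both TNF receptor genes were called lower and TNFRSF25 neither. TNFRSF1A, the TNF receptor with a death domain, had 56 UMIs in domatinostat and 84 in untreated cells, a ratio of 0.505 (0.354 to 0.717). TNFRSF1B, the TNF receptor without one, had 100 UMIs in domatinostat and 123 in untreated cells, a ratio of 0.616 (0.468 to 0.808). TNFRSF25 (DR3, another receptor with a death domain) had 224 UMIs in domatinostat and 168 in untreated cells, a ratio of 1.01 (0.823 to 1.24). Of the 11 other ligands and receptors, 4 reached 100 UMIs, 2 were called lower and 0 higher, and the median log2 ratio was -0.44. TNFRSF1A and TNFRSF1B had counts in the range of 100 to 300 UMIs, where 34.9% of genes were called lower.

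Among the 12 measured genes of the signalling complexes, 1 was called higher and 1 lower, and the median log2 ratio was -0.07. TRADD, the adaptor of TNF receptor 1, had 3.49 CPM in domatinostat and 5.46 CPM in untreated cells, a ratio of 0.639 (0.529 to 0.771). RNF31 (HOIP, the catalytic subunit of the linear ubiquitin ligase) had 81 UMIs in domatinostat and 34 in untreated cells, a ratio of 1.80 (1.20 to 2.78). CFLAR (c-FLIP, the inhibitor of caspase-8 at the receptor) had 9.49 CPM in domatinostat and 10.9 CPM in untreated cells, a ratio of 0.868 (0.769 to 0.981). RIPK1, a kinase that BIRC2 ubiquitinates, had 11.6 CPM in domatinostat and 8.95 CPM in untreated cells, a ratio of 1.29 (1.14 to 1.47). RIPK3, the kinase of necroptosis, was at 0 in both libraries.

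Among the other caspases, the effector caspase gene CASP6 was lower in domatinostat cells. CASP6 had 9.97 CPM (9.19 to 10.8) in domatinostat and 20.4 CPM (19.1 to 21.7) in untreated cells, a ratio of 0.490 (0.442 to 0.544). The CASP6 ratio was 0.621 (0.372 to 1.01) in G1, 0.509 (0.432 to 0.598) in S and 0.456 (0.393 to 0.527) in G2/M. CASP10, the initiator closest to CASP8, had 0 UMIs in domatinostat and 1 in untreated cells. CASP9, the initiator of the mitochondrial branch and a target of XIAP, had 2.91 CPM in domatinostat and 3.27 CPM in untreated cells, a ratio of 0.890 (0.711 to 1.11).

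On the mitochondrial side, where DIABLO belongs, 1 of 6 other genes was called higher and 0 lower, and the list's median log2 ratio was 0.15. ENDOG, a mitochondrial nuclease, had 162.7 CPM in domatinostat and 84.4 CPM in untreated cells, a ratio of 1.93 (1.86 to 2.0). It also varied strongly with the call, with 41.1, 61.9 and 264.7 CPM in G1, S and G2/M of domatinostat cells and 31.8, 31.6 and 167.7 CPM in those of untreated cells, and its ratio within the calls was 1.30 (0.986 to 1.70), 1.96 and 1.58. HTRA2, a protease that also antagonises IAPs, had 33.5 CPM in domatinostat and 27.0 CPM in untreated cells, a ratio of 1.24 (1.16 to 1.34). CYCS, which encodes cytochrome c, had 835.9 CPM in domatinostat and 948.4 CPM in untreated cells, a ratio of 0.881 (0.870 to 0.893). APAF1, the scaffold that cytochrome c binds, had 10.6 CPM in domatinostat and 12.99 CPM in untreated cells, a ratio of 0.814 (0.726 to 0.912).

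Of the other IAP genes and their regulators, 5 of 9 were measured, 0 were called higher and 1 lower. BIRC3 (cIAP2, the close relative of BIRC2) had 7 UMIs in domatinostat and 6 in untreated cells. BIRC5 (survivin, an IAP family protein that works in mitosis) had 200.8 CPM in domatinostat and 172.2 CPM in untreated cells, a ratio of 1.17 (1.13 to 1.20); it is among the genes that make the G2/M call, so it is not given by call. XAF1, an antagonist of XIAP, had 0 UMIs in domatinostat and 1 in untreated cells. SEPT4, which has among its isoforms ARTS, a promoter of XIAP degradation, had 76 UMIs in domatinostat and 109 in untreated cells, a ratio of 0.528 (0.389 to 0.714), and the counts per gene do not tell its isoforms apart. Among 10 caspase substrate genes all were measured, 0 were called higher and 1 lower, the actin regulator gene GSN with 34.6 CPM in domatinostat and 52.8 CPM in untreated cells, a ratio of 0.656 (0.619 to 0.696).

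**Figure D5:**
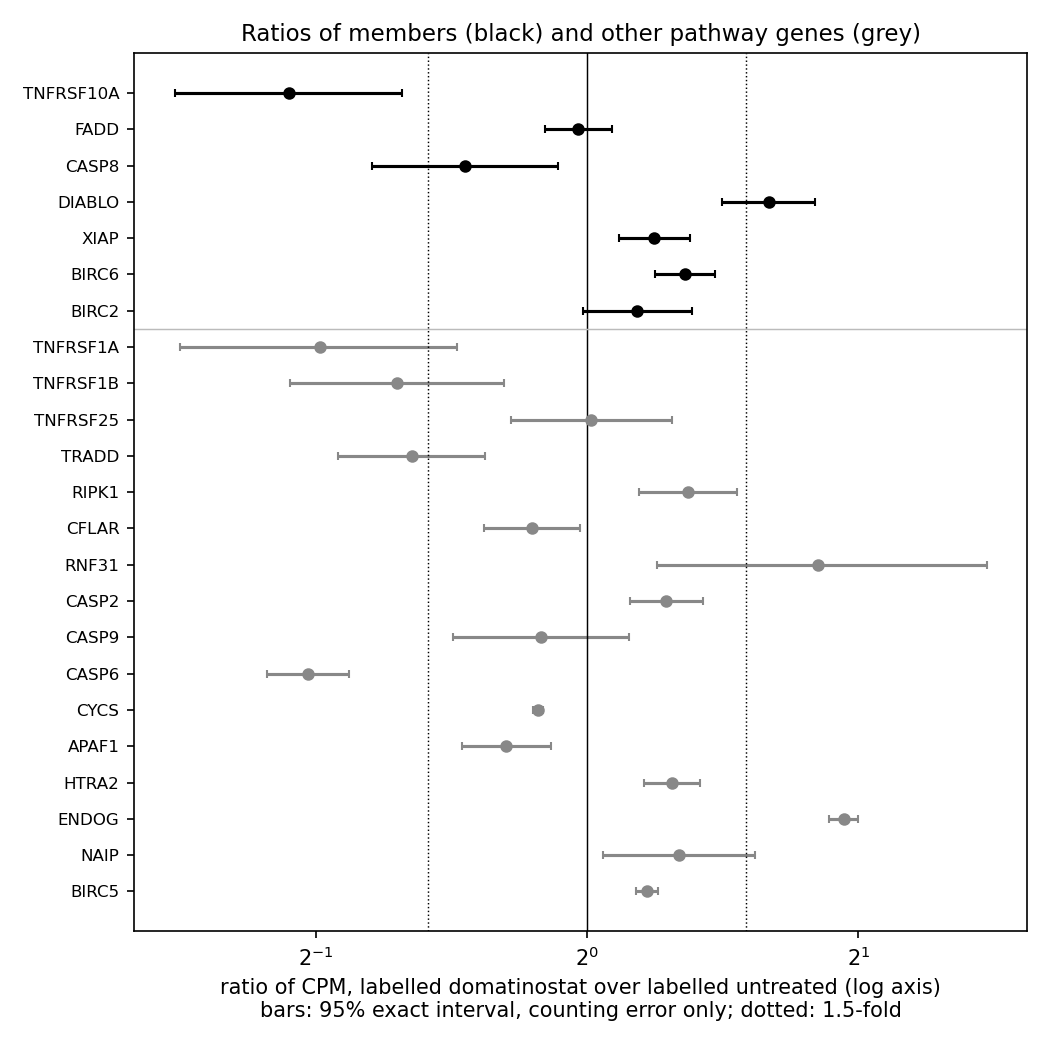
CPM ratio of domatinostat over untreated on a log axis for the 7 measured genes (black) and for other pathway genes (grey); bars are 95% exact intervals for counting error and dotted lines mark 1.5-fold. TNFRSF10A lies left of the lower line with TNFRSF1A, TNFRSF1B, TRADD and CASP6, and DIABLO lies right of the upper line with RNF31 and ENDOG.

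Reads of overlapping genes could touch some of these counts, and how they were assigned is not given in the sources used here. Both antisense genes, BIRC6-AS1 and XIAP-AS1, had 0 UMIs in domatinostat cells, and in untreated cells they had 0 and 1. The libraries had 48 cell barcodes in common, and these cells held 36 UMIs of the 9 genes in domatinostat and 47 in untreated cells; without them the same 2 genes were called.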

How the data were processed

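Single-cell libraries of WaGa cells were compared, 1 treated with domatinostat and 1 untreated. Per the submitters' processing notes, reads were processed with Cell Ranger and Seurat on hg19; versions, annotation and cell filters are not given in the sources used here. For both samples together, the authors deposited 1 table of 32742 genes and 10816 cells on a natural log scale, each value being the natural log of 1 plus counts per 10000, as its values show (back-transformed values sum to 10000 in each cell). The smallest step of each cell was taken as 1 UMI, which made 100% of values whole multiples (tolerance 1e-06). Cells were assigned by the treatment word ending their names, with 0 columns left over, and no filter on cells was added. No doublet caller was run; leaving out the deepest 5% of cells was an alternative.

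UMIs were summed per library. Ratios have exact Clopper-Pearson 95% intervals, levels exact Poisson ones, and a count of 0 the limit of 3 counts; these cover counting error only. With 1 library per group no test was made. Scripts were tested on simulated data. Cell cycle phases came from scanpy on thinned cells with both libraries scored together, and clusters from the Leiden method in each library (resolution 0.5, 2000 variable genes, 20 principal components, 15 neighbours). Likeness used log2(CPM + 1). Promoter windows are from RefSeq, GRCh38.p14; TNFRSF10A and TNFRSF10B were not among them.

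The 9 genes and all lists were chosen with earlier results of these data known. Named were all 9 genes, pathway genes at least 1.5-fold apart, genes acting directly on a member, and the 3 closest profiles of members with at least 1000 UMIs; a few genes that this rule selects are left out of the text. CDKN1A, TNF, TNFRSF25, RIPK3, the antisense genes, leading genes of clusters, the further grey genes of the plot of ratios, and the 2 classes by UMIs used as background were added after values were seen. Alternatives changed scaling, cell weights, pseudocount, minimum and cells used. The computation used Python 3.11.15, numpy 2.4.6, scipy 1.17.1, scanpy 1.11.5, leidenalg 0.10.2 and matplotlib 3.10.9.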

Additional observations from a re-analysis of the deposited data

How the results depend on the processing

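No paired analysis was possible because each group had 1 library, and none could be left out. TNFRSF10A was the member called lower and DIABLO the one called higher under the median-ratio scaling, a total that leaves out mitochondrially encoded and ribosomal protein genes, minima of 50 UMIs and of 1 UMI per library, thinned cells, cells of 7000 to 12000 UMIs, equal weight for the 3 cell cycle calls, and without the deepest 5% of cells or the shared barcodes. Equal weight per cell gave 2 members lower (CASP8 joined) and 0 higher. A pseudocount of 0.1 per 10000 and the mean of the natural log values, which shrink weak genes by construction, each gave 0 lower and 0 higher; a minimum of 500 UMIs gave 0 lower, as TNFRSF10A was not counted. Over all genes, 207 were lower and 42 higher with the pseudocount, 15 and 4 with the log means, 619 and 231 with the minimum of 500, and 4411 and 1604 with only 1 UMI per library required. In cells of 7000 to 12000 UMIs 636 were higher, and the cause was not tested. The log2 ratio of FADD turned to 0.11 in that window; the other 6 measured members kept their sign under all 10 settings that change the value, from -1.29 to -0.02 for TNFRSF10A and from 0.04 to 0.74 for DIABLO. Thinned to 8578 UMIs, the shares of cells with FADD stood in the other order (17.2% of domatinostat and 16.5% of untreated cells). Depth allowed no ratio for TNFRSF10B and FAS, with 1 UMI each in all, and gave wide intervals for TNFRSF10A and CASP8, with 207 and 289 UMIs.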
